A study of Mus musculus with 3 samples.

Results

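The 9 genes described here encode proteins that are made under cellular stress and that hold back protein synthesis, cell growth or the stress response itself. They were Trib3, Ppp1r15a, Chac1, Gdf15, Sesn2, Ddit4, Sesn1, Sesn3 and Eif4ebp1. Each was chosen by name, with earlier results of these data known. All probes carrying these names were taken, which gave 16 probes among 41125 and 9 genes among 27572. The files list Ppp1r15a under its older name Myd116. No probe bore the name 1810008K03Rik, which is an older name of Chac1, and the 1 probe that the files name Chac1 was used in its place.

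RNA came from J774A.1 cells, a macrophage-like line derived from a BALB/c mouse tumour. The cells had been kept for 6 h in EBSS with 10 µM SB202190, in EBSS alone, or in RPMI medium with 10% fetal bovine serum. EBSS (Earle's Balanced Salt Solution) holds salts and glucose but no amino acids, and no serum is named for it. SB202190 is an inhibitor of the p38 MAP kinases that also acts on other kinases. One wording of the labels leaves room for EBSS having been added to RPMI; the sample source names give plain EBSS, and that reading was used. The solvent of SB202190, and whether the cells without it were given that solvent, are not given in the sources used here. Each condition was 1 sample. It was hybridised once with each dye, Cy5 and Cy3, and the 3 arrays with 2 colours formed a closed loop. No separate cultures are named, no test between conditions was possible, and the errors given are technical. As RNA of whole cultures was measured, fewer cells making a transcript and less RNA per cell cannot be told apart.

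When amino acids are scarce, the kinase GCN2 phosphorylates the translation factor eIF2, general protein synthesis slows, and the transcription factor ATF4 is made instead. ATF4 and its partner CHOP (Ddit3) switch on genes of amino acid supply, and with them genes that limit the response. Amino acid withdrawal also turns off mTORC1, the kinase complex at the lysosome that drives cell growth, and several stress-induced proteins act as brakes on it. In macrophages both pathways bear on how long a cell deprived of nutrients goes on making proteins and cytokines.

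ATF4 binds with C/EBP proteins to composite elements whose core, TGATGNAA, was searched on both strands of RefSeq promoters (GRCm38.p6), 250 bases before to 50 after each start. Promoters were listed for 8 of the 9 genes, 10 start sites in all. Eif4ebp1 had no entry. Only the promoters of Chac1 and Trib3 held a match, 2 of the 8 genes. Of all 27025 genes with promoters of the same length 4.51% held one, and of their 32851 promoters 3.97%. The stretches of 30 bases around both matches, whose letters are in capitals, read as follows on the strand of the gene (chr2:119351038-119351067, plus strand, for Chac1 and chr2:152344028-152344057, minus strand, for Trib3).
Chac1: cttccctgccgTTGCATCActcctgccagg
Trib3: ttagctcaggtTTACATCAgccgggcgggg
In Chac1 the match began 193 bases before the start, and in Trib3 at base 15 after it. Both lay on the strand opposite to the gene. The 250 bases before the start are shown for Chac1 (chr2:119350992-119351241, plus strand) beside those of Sesn2 (chr4:132510457-132510706, minus strand) and Ppp1r15a (chr7:45526269-45526518, minus strand), which went up with it in EBSS but held no match. Capitals mark the searched core.
Chac1: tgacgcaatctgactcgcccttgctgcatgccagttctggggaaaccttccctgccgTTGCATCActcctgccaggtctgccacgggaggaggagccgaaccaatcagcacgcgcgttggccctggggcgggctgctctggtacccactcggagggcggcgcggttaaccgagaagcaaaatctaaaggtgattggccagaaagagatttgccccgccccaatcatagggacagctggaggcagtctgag
Sesn2: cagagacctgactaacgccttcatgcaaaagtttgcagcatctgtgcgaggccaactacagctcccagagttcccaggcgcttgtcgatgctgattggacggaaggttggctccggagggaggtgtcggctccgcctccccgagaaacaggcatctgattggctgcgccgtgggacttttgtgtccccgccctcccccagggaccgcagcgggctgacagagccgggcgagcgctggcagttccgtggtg
Ppp1r15a: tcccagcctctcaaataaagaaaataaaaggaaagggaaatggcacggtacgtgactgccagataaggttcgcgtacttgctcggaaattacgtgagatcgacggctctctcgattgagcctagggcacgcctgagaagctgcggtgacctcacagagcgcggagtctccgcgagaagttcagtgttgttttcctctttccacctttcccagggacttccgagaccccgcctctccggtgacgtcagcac
A match is a description of the letters. Its absence from this window says nothing about binding elsewhere.

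The scanner software marked 40.1% to 49.9% of the spots of each channel as well above background. Over 10777 genes well above background everywhere, both channels of a condition had a Pearson correlation of 0.995 to 0.997 across genes, which are not independent replicates. Between conditions it was 0.945 to 0.971. The median technical SE of a log2 ratio was 0.118. All 10 macrophage markers, among them Csf1r, Adgre1 and Cd68, were well above background in all 3 conditions. Of the markers of other cell types on the array, Hba-a1 and S100a8 were well above background in all channels, and the other 9, of T and B cells, epithelium, fibroblasts and hepatocytes, on both arrays of no condition. Negative control spots had a median brightness of 218.3 to 228.4 in Cy3, where the local background was 55.0 to 59.0, and of 105.6 to 108.4 in Cy5, where it was 64.5 to 66.0. Background taken next to the spots was therefore lower than the brightness of spots with no target. This bears on probes whose signal in a condition is near that of these spots, so for Sesn1, Sesn3 and Eif4ebp1 the ratios of the scanner software are given as well.

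EBSS was set against RPMI to describe how these genes responded to the change of medium. Loss of amino acids, loss of serum and any other difference between the media cannot be told apart here. In EBSS 6 of the 9 genes were counted as higher, where 4.48% of all 11874 measured genes were, and 1 as lower, where 2.82% were. To be counted, a gene needed a log2 ratio of 1 or more in size, and 2 separate estimates, a direct one from the array with both samples and an indirect one from the remaining 2 arrays, each had to reach 0.5 in the same direction. It also had to be well above background on both arrays of 1 of the conditions. The higher genes were Trib3, Ppp1r15a, Sesn2, Gdf15, Ddit4 and Chac1, and the lower gene was Sesn1. The median log2 ratio of the 9 genes was 1.76, against 0.00 for all measured genes. With the ratios of the scanner software 7 were higher and 1 lower, against 8.10% and 9.21% of all measured genes.

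Trib3 encodes a pseudokinase that ATF4 and CHOP induce and that restrains ATF4 and the growth kinase AKT. Its brightest probe had a normalized log2 signal of 15.87 (Cy5) and 16.21 (Cy3) in EBSS, against 12.99 and 13.03 in RPMI. Both readings in EBSS lay far above both in RPMI, and the log2 ratio was 3.08 ± 0.22 (technical SE), or 8.44-fold. Only 4 measured genes had a higher ratio. The second probe of Trib3, placed elsewhere in the same transcript, gave 2.66 ± 0.15.

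Ppp1r15a, also called GADD34, encodes the subunit that directs protein phosphatase 1 to phosphorylated eIF2 and so lets translation resume. It had 13.19 (Cy5) and 13.81 (Cy3) log2 units in EBSS, against 11.07 and 10.31 in RPMI. The dyes differed by 0.62 in EBSS and by 0.77 in RPMI, much less than the conditions did, and the log2 ratio was 2.78 ± 0.12 (6.88-fold), at rank 10 of 11874.

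Gdf15 encodes a secreted stress cytokine of the TGF-beta superfamily, whose receptor GFRAL is known from the hindbrain. Its log2 signal was 13.20 (Cy5) and 13.17 (Cy3) in EBSS, against 11.18 and 10.04 in RPMI. The readings in EBSS were nearly equal, while those in RPMI were 1.15 apart. The log2 ratio was therefore 1.99 directly and 2.76 indirectly, and 2.25 ± 0.11 from all 3 (4.75-fold). For this gene the loop of ratios missed 0 by 0.77, the widest of the 9, and the error given is that of genes of its brightness.

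Chac1 encodes an enzyme that breaks down glutathione and is a target of ATF4 and CHOP. It had 13.25 (Cy5) and 13.32 (Cy3) in EBSS, against 11.56 and 11.51 in RPMI. Of all 9 genes its direct and indirect estimates lay closest together, at 1.76 and 1.71, with a log2 ratio of 1.74 ± 0.12 (3.35-fold).

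Among the brakes on mTORC1, Sesn2 moved most. Sestrin 2 binds the GATOR2 complex and, in human cells, lets go of it when leucine is bound, so that without leucine it keeps mTORC1 off. Its brightest probe had 14.50 (Cy5) and 14.73 (Cy3) log2 units in EBSS, against 12.09 and 12.16 in RPMI, a log2 ratio of 2.60 ± 0.16 (6.05-fold). The second probe gave 1.93 ± 0.11. Ddit4, or REDD1, restrains mTORC1 through the TSC complex. It stood at 12.79 (Cy5) and 12.88 (Cy3) in EBSS and at 11.18 and 10.96 in RPMI, a log2 ratio of 1.76 ± 0.13 (3.38-fold).

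The 3 sestrin genes did not go the same way. Sesn1 was lower in EBSS: its brightest probe had 9.31 (Cy5) and 9.20 (Cy3), against 10.58 and 10.68 in RPMI, and the log2 ratio was -1.28 ± 0.12. At 0.413-fold this is the reverse of Sesn2, with no overlap between the conditions in either gene. The other probes of Sesn1 gave -0.48 and -0.15. With the ratios of the scanner software the brightest gave -2.25 and the second -2.29, the second being well above background on only 1 of the EBSS arrays. The third probe was not well above background in EBSS on either array, and its signal was at least 1.11-fold higher in RPMI, a bound set by the dimmest probe still well above background.

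Of the 3 probes of Sesn3, only the brightest was well above background in every channel. It had 9.01 (Cy5) and 9.03 (Cy3) in EBSS, against 8.92 and 8.87 in RPMI, and its log2 ratio of 0.26 ± 0.09 was not counted. A second probe gave -0.03, or -1.12 with the ratios of the scanner software, and was well above background on only 1 of the EBSS arrays. The third was well above background nowhere. Its direction in EBSS was thus not settled.

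Eif4ebp1 encodes 4E-BP1, which mTORC1 keeps phosphorylated and which otherwise binds eIF4E and blocks the start of translation. It is also a known target of ATF4 in mouse. It had 15.04 (Cy5) and 15.34 (Cy3) in EBSS, against 14.23 and 14.27 in RPMI. Every reading in EBSS was above every reading in RPMI, and the log2 ratio of 0.97 ± 0.22 fell just short of the size required. With the ratios of the scanner software it was 1.10 and was counted. Its second probe gave 0.65, or 2.16 with those ratios.

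**Figure D1:**
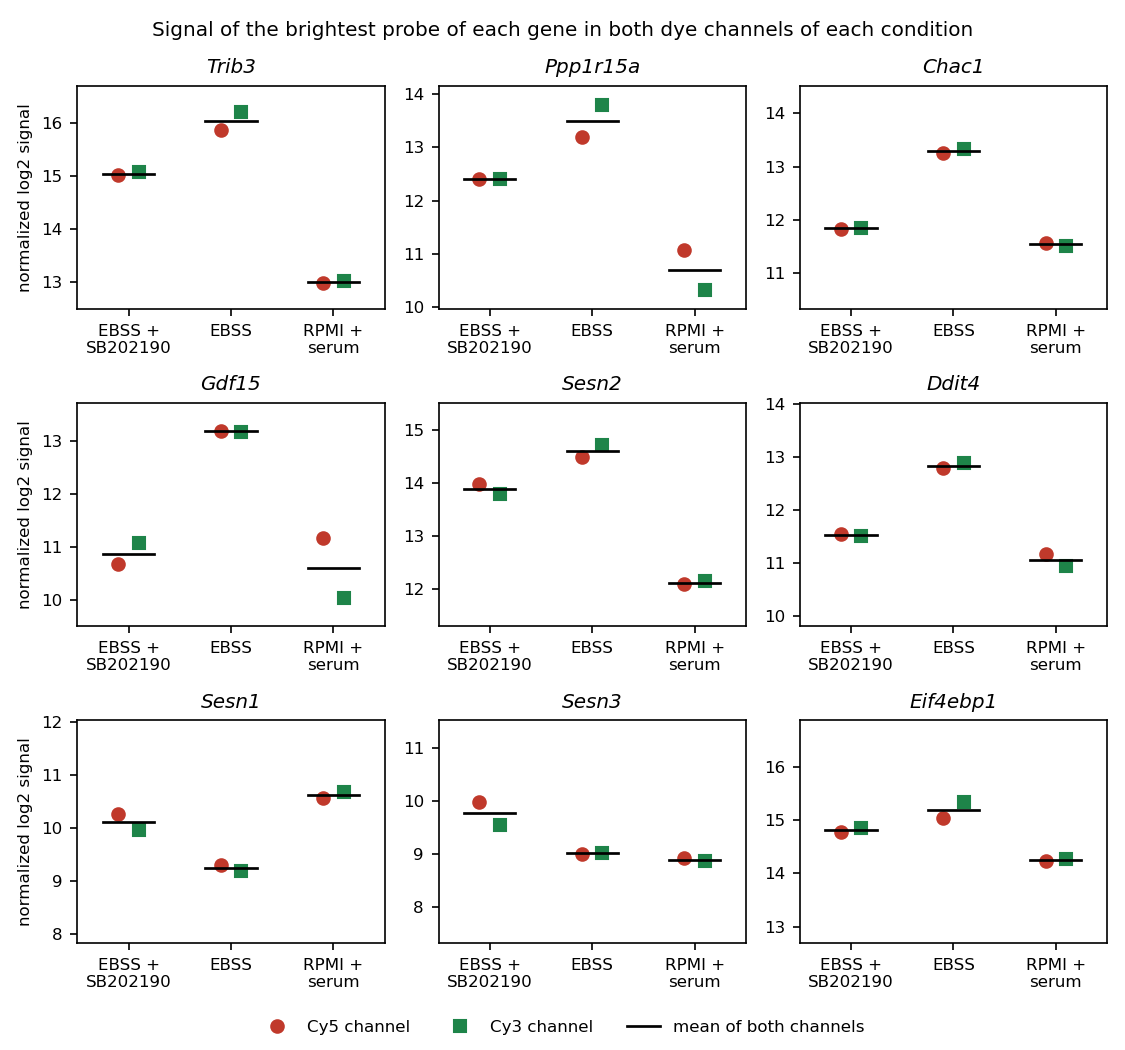
Normalized log2 signal (y axis) of the brightest probe of each of the 9 genes in EBSS with SB202190, EBSS and RPMI, with Cy5 readings as circles, Cy3 readings as squares and the mean of both as a bar; each panel spans the same number of log2 units, and levels are not comparable between panels. Gdf15, Chac1 and Ddit4 lie close to RPMI when SB202190 was present, whereas Trib3, Ppp1r15a and Sesn2 stay in between, and Sesn1 runs the other way.

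The inhibitor was tested on top of starvation, and what p38 and other targets of SB202190 each contribute cannot be told apart. The EBSS sample is the same one as above, and a reading peculiar to it would move both comparisons in opposite directions. With SB202190, 3 of the 9 genes were counted as lower, where 2.93% of 11692 measured genes were, and 0 as higher, where 0.889% were. The lower genes were Gdf15, Chac1 and Ddit4. The median log2 ratio of the 9 was -0.74, against 0.00 for all measured genes. Of the 10 macrophage markers, Cd14 (-1.56) and Fcgr1 (-1.31) were lower too; the part of this in the result was not tested.

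Gdf15 had 10.68 (Cy5) and 11.08 (Cy3) log2 units with SB202190, against 13.20 and 13.17 in EBSS. Both readings with the inhibitor were far below either in EBSS, and the log2 ratio was -1.86 ± 0.11 (0.276-fold). It was -2.12 directly and -1.34 indirectly. Chac1 stood at 11.82 (Cy5) and 11.85 (Cy3) with the inhibitor and at 13.25 and 13.32 in EBSS, a log2 ratio of -1.42 ± 0.12. Ddit4 had 11.55 (Cy5) and 11.51 (Cy3) with the inhibitor, against 12.79 and 12.88 in EBSS, and -1.23 ± 0.13.

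Trib3, Ppp1r15a and Sesn2, the genes with the largest ratios in EBSS, also had negative ratios with SB202190, but none was counted. Trib3 had 15.02 (Cy5) and 15.08 (Cy3) with the inhibitor, against 15.87 and 16.21 in EBSS, and a log2 ratio of -0.94 ± 0.22. With the ratios of the scanner software it was -1.01 and was counted. For Ppp1r15a the readings were 12.40 in both dyes with the inhibitor, against 13.19 and 13.81 in EBSS, and the log2 ratio was -0.74 ± 0.12. Sesn2 had 13.99 (Cy5) and 13.80 (Cy3) with the inhibitor, against 14.50 and 14.73 in EBSS, and -0.74 ± 0.16. In all 3 genes no reading with the inhibitor reached one in EBSS. Eif4ebp1 had 14.78 (Cy5) and 14.86 (Cy3) with the inhibitor, against 15.04 and 15.34 in EBSS, a log2 ratio of -0.32 ± 0.22.

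Sesn1 and Sesn3 had positive ratios with SB202190. Sesn1 stood at 10.27 (Cy5) and 9.96 (Cy3) with the inhibitor, against 9.31 and 9.20 in EBSS, a log2 ratio of 0.76 ± 0.12. Sesn3 had 9.98 (Cy5) and 9.55 (Cy3) with it, against 9.01 and 9.03 in EBSS, and 0.70 ± 0.09, and its second probe gave 0.64. Neither was counted with these values. With the ratios of the scanner software both were, at 1.715 for Sesn1 and at 2.01 for Sesn3. The second probe of Sesn1 gave 0.21, or 1.76 with those ratios, and the second probe of Sesn3 gave 2.66 with them, each with 1 EBSS array well above background. The third probe of Sesn1 cleared background in too few channels to be measured here. With those ratios 4 of the 9 genes were lower and 2 higher, against 6.60% and 6.69% of all measured genes.

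**Figure D2:**
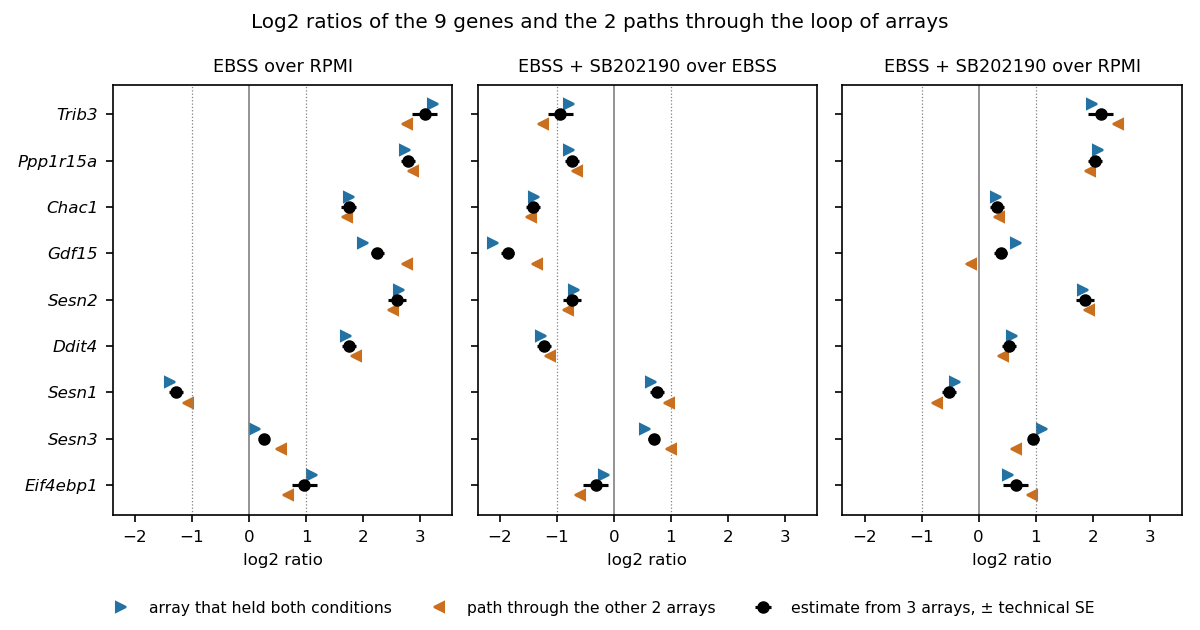
Log2 ratio (x axis) of each gene in the 3 comparisons, as the estimate from all 3 arrays with its technical SE (circles), as the direct (right-pointing triangles) and as the indirect estimate (left-pointing triangles); dotted lines mark 1 and -1. Both lie farthest apart for Gdf15, at 1.99 and 2.76 in EBSS against RPMI.

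EBSS with SB202190 was also set against RPMI, which shows how far each gene stood from fed cells when both treatments were combined. Here 3 of the 9 genes were counted as higher, where 1.47% of 11863 measured genes were, and 0 as lower, where 2.43% were. These were Trib3 (2.14 ± 0.22, 4.41-fold), Ppp1r15a (2.04 ± 0.12, 4.11-fold) and Sesn2 (1.86 ± 0.16, 3.63-fold), at ranks 15, 18 and 27 of all measured genes. Against them, Chac1 lay at 0.33 ± 0.12, Gdf15 at 0.39 ± 0.11 and Ddit4 at 0.53 ± 0.13, so that the 6 genes higher in EBSS fell into a set well above RPMI and a set near it. The comparison shares its samples with both others, and the split restates their values. In Gdf15 the readings with SB202190, 10.68 and 11.08, lay between those in RPMI, 11.18 and 10.04, and the sign was not settled: the direct estimate was 0.65 and the indirect one -0.13.

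Sesn3 had the highest signal of the 3 media in EBSS with SB202190, with a log2 ratio to RPMI of 0.96 ± 0.09, just short of being counted, and 2.49 with the ratios of the scanner software. The direct estimate was 1.11 and the indirect one 0.65. The loop of ratios missed 0 by 0.46, and the error given is that of genes of its brightness, not of Sesn3 alone. The second probe of Sesn3 gave 0.62, from 0.83 directly and 0.19 indirectly. The ratios of the scanner software counted 4 of the 9 genes as higher and 0 as lower, against 4.00% and 6.52% of all measured genes. Sesn1 lay at -0.52 ± 0.12 and Eif4ebp1 at 0.65 ± 0.22, and neither was counted. Over the 3 media, Sesn1 thus ran highest in RPMI and lowest in EBSS, the reverse of the order in Trib3, Ppp1r15a, Chac1, Sesn2, Ddit4 and Eif4ebp1, whose 3 pairs of readings followed one another without overlap from EBSS through EBSS with SB202190 to RPMI.

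**Figure D3:**
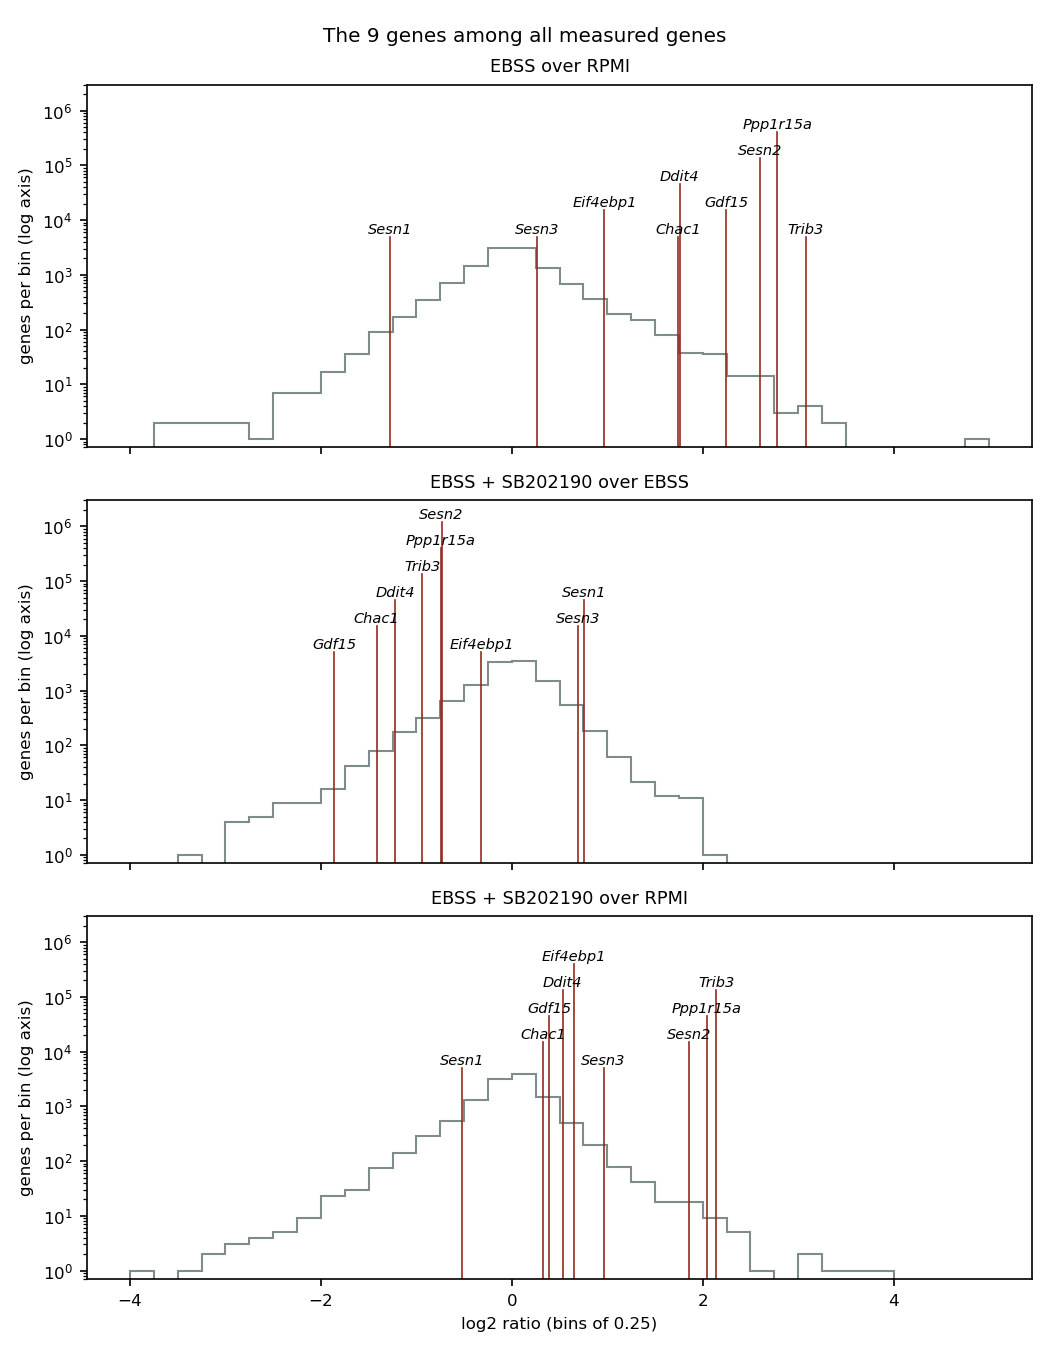
Number of measured genes (y axis, log scale) by log2 ratio (x axis, bins of 0.25) in the 3 comparisons, with each of the 9 genes marked at its own ratio. In EBSS against RPMI, 6 of the 9 lie at 1.74 or higher and Sesn1 at -1.28, and with SB202190 against RPMI Trib3, Ppp1r15a and Sesn2 stand apart from the rest.

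The 16 probes showed where a gene's value depends on the probe. For Trib3 and Sesn2, whose probes were well above background in every channel, the probes differed by less than 1 log2 unit and in no sign. Ppp1r15a, Chac1, Gdf15 and Ddit4 had 1 probe each, so no second probe bears on their ratios. Among them are all the genes counted with SB202190 against EBSS. The ratios of Sesn1 and Sesn3 and of the second probe of Eif4ebp1 depended most on how background was subtracted. Taking background from the negative control spots was a setting chosen after the values were seen. It moved Sesn1 to -1.95 in EBSS against RPMI and Sesn3 to 1.44 with SB202190 against EBSS, towards the scanner values. In EBSS against RPMI it moved Trib3 to 3.22 and Chac1 to 1.82 only. There the second probe of Sesn2 moved from 1.93 to 2.22, Ppp1r15a from 2.78 to 2.95 and Gdf15 from 2.25 to 2.40. Each of these moved by more than its technical SE. The probes of the brightest signal lay at chr2:152029060-152029119 for Trib3, chr7:45392254-45392313 for Ppp1r15a and chr2:119045695-119045754 for Chac1. Those of Gdf15, Sesn2 and Ddit4 lay at chr8:73558561-73558620, chr4:131764135-131764194 and chr10:59345095-59345154. Those of Sesn1, Sesn3 and Eif4ebp1 lay at chr10:41596609-41596668, chr9:14076405-14076464 and chr8:28741351-28741410. Positions are those in the files, on build mm8, and their place within exons was not analysed here.

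**Figure D4:**
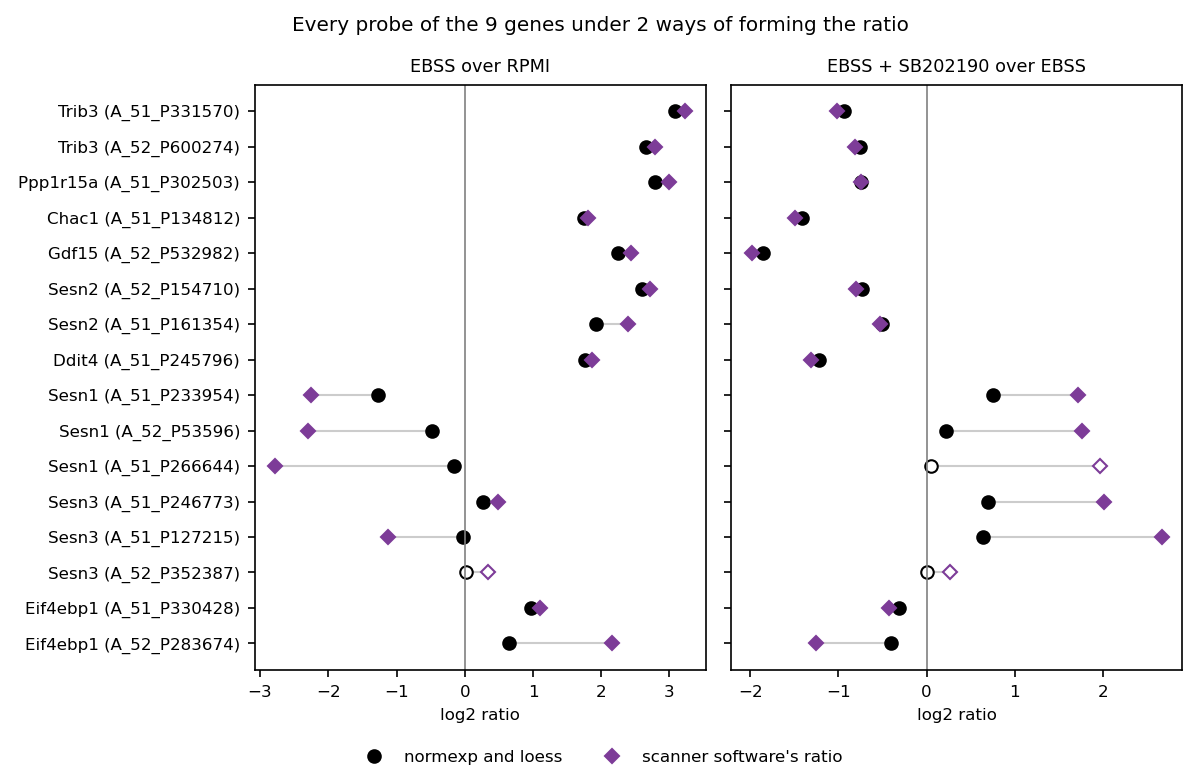
Log2 ratio (x axis) of each of the 16 probes in EBSS against RPMI and in EBSS with SB202190 against EBSS, from normexp and loess (circles) and as given by the scanner software (diamonds); open symbols mark probes not well above background on both arrays of either condition. In EBSS against RPMI the pairs lie close together for Trib3, Chac1 and Ddit4 and far apart for Sesn1 and the second probe of Eif4ebp1; the third Sesn1 probe did not clear background in EBSS on either array, so its ratios have no exact size.

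Of 27 other measured targets of the integrated stress response, 16 were higher in EBSS than in RPMI, where 4.48% of all measured genes were. In the same comparison 0 were lower (2.82% of all measured genes) and the rest were not counted. The median was 1.20, against 0.00 for all measured genes. Of the 16, Slc7a11 (1.20) had 0.46 and 0.75 on its other probes, and Slc38a2 (2.08) had 1.29, 0.74 and -0.10. The other probes of Cebpg (1.12), Slc3a2 (1.34) and Aars (1.24) stayed above 1. This list and those below were chosen with earlier results of these data known. Ddit3 (CHOP) had a log2 ratio of 3.32 ± 0.12, the stress-induced chromatin protein gene Nupr1 2.72 ± 0.16, and Herpud1, of protein degradation at the endoplasmic reticulum, 2.31 ± 0.16. Atf4 itself stood at 1.64 ± 0.16 and the asparagine synthetase gene Asns at 0.96 ± 0.22. With SB202190 in EBSS 7 of the 27 were lower (2.93% of all measured genes) and 0 higher (0.889%), with a median of -0.68. Nupr1 was among them at -1.36, whereas Ddit3 was at -0.16, Herpud1 at -0.07 and Atf4 at -0.68. In EBSS with SB202190 against RPMI 6 were higher (1.47% of all measured genes) and 1, Cebpb at -1.02, was lower (2.43%).

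Of 18 measured genes of the eIF2 machinery that Ppp1r15a acts on, 1 was higher in EBSS, Impact (1.59 ± 0.13), whose product restrains GCN2, and 1 was lower, the eIF2B subunit gene Eif2b4 (-1.31 ± 0.12, with -0.44 for its other probe), around a median of 0.08. Of all measured genes 4.48% were higher and 2.82% lower, so these counts do not set the list apart. Ppp1r15b, the constitutive counterpart of Ppp1r15a, had 0.74 ± 0.12. With SB202190 in EBSS 0 of the 18 were counted, where 2.93% of all measured genes were lower and 0.889% higher. In EBSS with SB202190 against RPMI only Impact was counted (1.22), as higher, where 1.47% of all measured genes were higher and 2.43% lower.

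In the mTORC1 list 9 of 39 measured genes were higher in EBSS (4.48% of all measured genes) and 0 lower (2.82%), around a median of 0.16. Tsc1 (1.02), 1 of the 9, had 0.17 and 0.09 on its other probes. The largest ratios belonged to folliculin and its partners, which act on the Rag GTPases that bring mTORC1 to the lysosome: Fnip1 (2.67 ± 0.12, with 2.56, 2.08 and 0.22 for other probes), Flcn (2.60 ± 0.14) and Fnip2 (2.41 ± 0.16). The gene of the kinase itself, Mtor, lay at -0.34 ± 0.12, with 0.05 for its other probe. With SB202190 in EBSS 4 of the 39 were lower (2.93% of all measured genes) and 0 higher (0.889%). These were, named after their values were seen, Akt1s1 (-1.21), Lamtor3 (-1.08), Rragc (-1.04) and Flcn (-1.02). Against RPMI 5 were higher (1.47% of all measured genes) and 0 lower (2.43%). The 5 were Fnip1 (1.91), Flcn (1.58), Fnip2 (1.44), Ulk1 (1.41) and Mlst8 (1.07).

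Of the paralogs of the 9 genes 5 were measured. Trib1, a pseudokinase of the same family as Trib3 that directs protein degradation, was lower in EBSS, at -2.06 ± 0.11, and in EBSS with SB202190 against RPMI, at -1.89, with 0.17 for SB202190 against EBSS. It was the 1 of the 5 that was counted. Of all measured genes, 2.82% were lower in EBSS and 2.43% in EBSS with SB202190, each against RPMI. Ppp1r15b had 0.74 in EBSS against RPMI (0.84 on its other probe) and -0.62 with SB202190 against EBSS, where Ppp1r15a had 2.78 and -0.74. Eif4ebp3 had 0.47 ± 0.12 in EBSS against RPMI, Chac2 0.30 and Eif4ebp2 -0.27, while Trib2 and Ddit4l were not well above background in any channel.

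Among 10321 genes measured in all 3 comparisons, those whose log2 ratios in EBSS against RPMI and with SB202190 against EBSS were nearest to Trib3 were Bbc3 (distance 0.29 in log2 units), Fnip1 (0.44) and Flcn (0.48). Nearest to Gdf15 were Mdfic (0.10), P2rx7 (0.10) and Rsrp1 (0.20), and nearest to Sesn1 were Sephs2 (0.02), Ssr1 (0.04) and Zfp61 (0.07). These distances rest on 3 conditions with 1 sample each.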

How the data were processed

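Each array held RNA of 2 conditions, labelled with Cy5 and Cy3, per the labels. The scanner software was Agilent Feature Extraction, version 9.5.3.1, per the file headers. The deposited files give, per the file headers, the mean intensity of each spot and its local background without normalization, processed intensities after background subtraction and dye normalization, and a log10 ratio of these. Deposited marks of other kinds say whether a spot is a control, an outlier or well above background, per the file headers. Log2 values in the table deposited for the whole series equalled the log2 ratio of processed intensities within 0.01 at 100% of probes, with medians of -0.0854, -0.0766 and -0.166, so that its scale and direction (Cy5 over Cy3, not centred) are known.

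From these files, mean intensities were corrected with normexp (offset 50) and normalized by loess within arrays, control spots having weight 0 (limma 3.58.1 under R 4.3.3). Channel signals were then set to a common intensity distribution between arrays (Aquantile). Of 45018 spots an array, 1639 controls and 136 to 178 outliers were dropped. None was saturated. Probe values are means over spots, and 49 probes lacking a value on some array were dropped. Log2 ratios are least-squares estimates over the loop (Python 3.11.15, numpy 2.4.6, pandas 2.3.3), and the technical SE comes from the spread of the sum of ratios around the loop among genes of like brightness (30 bins). A gene was represented by its brightest probe. The computation of ratios and calls was checked on simulated data, which says nothing of error between cultures. The number of arrays limits the precision. Gene names came from RefSeq (GRCm38.p6): 24342 of 41125 probes matched by accession, 6296 by symbol and 2421 by synonym. For the remaining 8066 the file's name was used.

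The genes and lists were chosen with earlier results of these data known. Named were all 9 genes, per list the 3 largest ratios in EBSS against RPMI, Atf4, Ddit3, Asns and the 3 genes nearest to Trib3, Gdf15 and Sesn1. Other genes were named after their values were seen. Of the alternatives, 14 were planned and 2, background from negative control spots and centring relative to the median of all measured genes, were chosen after seeing the data.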

Additional observations from a re-analysis of the deposited data

How the results depend on the processing

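Of the 9 genes, 3 were counted in EBSS with SB202190 against EBSS, all lower. In their place, 6 were counted from scanner log ratios, from the authors' series table, with no background correction and with background from negative control spots, 7 with equal spread between arrays, 5 on the other 2 arrays alone, 1 with a log2 ratio of 1.5 and 8 with a log2 ratio of 0.58. In EBSS with SB202190 against RPMI, where 3 were counted, all higher, it was 5 with a log2 ratio of 0.58. A lower required ratio counts at least as many genes of any kind. Except for scanner log ratios, the share of all measured genes under these settings is not given here. The counts of the 9 genes under them therefore cannot be set against it. Counts in EBSS against RPMI (7) stayed between 6 and 8 under all 16 settings, where Sesn1 was not counted with median centring (-0.54), the median of all probes (-0.48) or a log2 ratio of 1.5. Not all 16 were separate checks. The authors' series table gave the 9 genes the same ratios as the scanner software. Dropping the filter on dim probes, requiring both conditions well above background and keeping outlier spots left the ratios of the 9 genes unchanged. The share of all measured genes moved too. Counted higher in EBSS against RPMI were 4.48%, but 2.91% with the median of all probes, 8.10% with scanner log ratios and 35.8% with median centring. With scanner log ratios 6.60% were lower with SB202190 against EBSS, in place of 2.93%. A steady count of the 9 genes thus does not by itself show a stable result. No counted gene changed sign in any setting. Median centring moved the median of all measured genes to 0.81 in EBSS against RPMI, -0.45 with SB202190 against EBSS and 0.34 with SB202190 against RPMI, and counted 4252 genes as higher and 23 as lower in the first. Relative to that median, a setting chosen after seeing the data like that from negative control spots, Ddit4 (-1.51) was not counted with SB202190 against EBSS. Trib3 (-1.43), Sesn2 (-1.14) and Ppp1r15a (-1.085) were not counted there either. At these sizes the direct and indirect estimates did not both reach 0.5 in the same direction. The cause of the shift in the median was not tested. Signal near background limits Sesn1, Sesn3 and the second probe of Eif4ebp1, and the lack of a second sample limits every comparison. No paired analysis was possible because each condition has 1 sample and the labels number no replicates.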
